A study of Homo sapiens with 3 samples.

Results

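The nuclear-encoded subunits of the respiratory chain and ATP synthase were followed in HCT116 cells after transfection with siRNAs to DUOX2. They were taken from the gene table by name: protein-coding rows of the NDUFA, NDUFB, NDUFC, NDUFS, NDUFV, SDH, UQCR, COX4 to COX8 and ATP5 series plus CYC1, leaving out assembly factors with NDUFAF names and hyphenated readthrough genes. This gave 90 genes of the 58302 in the table. HCT116 is an established human colorectal cancer line, and DUOX2 encodes a membrane oxidase that makes hydrogen peroxide. The study held 3 RNA-seq libraries: 1 from cells given a negative-control siRNA, 1 from cells given DUOX2 siRNA 1 and 1 from cells given DUOX2 siRNA 2. Dose and time after transfection are not given in the labels. The 2 siRNA libraries entered the test as replicates of 1 group against the single control. The p-values rest on the spread between these libraries and on spread borrowed from other genes (prior degrees of freedom 4.66). The spread between the libraries holds differences between the siRNAs together with any technical ones. Nothing in the labels says that either siRNA was given to more than 1 culture, so spread between cultures of the same siRNA was not measured. The labelled library protocol speaks of retinas, which is not the labelled cell line.

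The respiratory chain moves electrons from NADH and succinate to oxygen and pumps protons across the inner mitochondrial membrane, and ATP synthase (complex V) uses that gradient to make ATP. Complex I accepts electrons from NADH, complex II from succinate, complex III passes them to cytochrome c, and complex IV (cytochrome c oxidase) passes them to oxygen. Complexes I, III, IV and V are built from subunits of both the nuclear and the mitochondrial genome, whereas complex II is wholly nuclear. Many nuclear subunit genes have binding sites for NRF1 and ETS factors such as GABPA in their promoters.

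Libraries held 17589502 counts (control), 19130768 (siRNA 1) and 18832672 (siRNA 2). DUOX2 itself, the targeted gene, had 2 control counts, 2 with siRNA 1 and 0 with siRNA 2, so its knockdown was not detectable at this depth. Of 10 colorectal epithelial markers, CDX1 and CEACAM5 were at 0 in every library, and the summed level of the list was 5349 CPM (counts scaled to library total) in the control, 3284 CPM with siRNA 1 and 4870 CPM with siRNA 2. Of 12 photoreceptor and retina markers 8 were at 0 throughout, among them CRX and SAG, and the list summed to between 5.12 and 9.10 CPM. The part of the lower epithelial sum with siRNA 1 in the results below was not tested. In bulk libraries such as these, fewer cells of a type and less RNA per cell cannot be told apart.

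Promoter windows were available in RefSeq (GRCh38.p14) for 73 of the 90 genes, 88 windows in all, each of 300 bases from 250 before to 50 after the start. Exact matches were counted on both strands. The NRF1 core lay in 19.3% of subunit windows and in 5.78% of the 35116 windows of all genes. The ETS core CCGGAAG lay in 22 of the 88 windows, 25%, against 10.3%, the YY1 motif in 4.55% against 0.85%, and the E-box CACGTG, which MYC and MAX bind, in 7.95% against 7.26%. A match is a description of letters, not a shown binding site.

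Printed next are the windows of the 2 lowest and 2 highest subunits with a single window and a motif, chosen by their mean log2 fold change among those on the same side of the control with both siRNAs. Capitals mark the motif matches, and positions count from 1 at the 5′ end of the window. NDUFA11 (chr19:5903741-5904040, minus strand) held an E-box at 119 and an NRF1 core at 153, and NDUFS7 (chr19:1383657-1383956, plus strand) an E-box at 64. SDHD (chr11:112086623-112086922, plus strand) held an NRF1 core at 141 and an ETS core at 174, and NDUFA12 (chr12:95003648-95003947, minus strand) an NRF1 core at 135. None of these matches overlap each other.
NDUFA11: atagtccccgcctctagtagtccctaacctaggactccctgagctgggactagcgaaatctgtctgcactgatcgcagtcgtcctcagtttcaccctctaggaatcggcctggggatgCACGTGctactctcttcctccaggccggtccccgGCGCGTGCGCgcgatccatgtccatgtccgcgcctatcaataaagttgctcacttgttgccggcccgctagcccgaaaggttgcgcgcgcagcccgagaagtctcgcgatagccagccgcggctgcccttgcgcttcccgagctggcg
NDUFS7: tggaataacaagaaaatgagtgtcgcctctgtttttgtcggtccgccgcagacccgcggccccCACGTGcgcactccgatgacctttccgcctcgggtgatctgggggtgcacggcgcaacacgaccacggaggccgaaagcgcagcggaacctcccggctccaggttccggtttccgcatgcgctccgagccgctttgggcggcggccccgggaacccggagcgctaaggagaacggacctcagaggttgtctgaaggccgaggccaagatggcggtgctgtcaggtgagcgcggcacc
SDHD: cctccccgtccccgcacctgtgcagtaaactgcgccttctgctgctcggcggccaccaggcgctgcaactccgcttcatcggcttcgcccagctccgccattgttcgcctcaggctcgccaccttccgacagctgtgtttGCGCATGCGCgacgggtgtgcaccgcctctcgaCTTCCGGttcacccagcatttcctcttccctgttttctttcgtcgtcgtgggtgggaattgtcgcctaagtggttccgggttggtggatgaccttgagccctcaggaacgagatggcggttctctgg
NDUFA12: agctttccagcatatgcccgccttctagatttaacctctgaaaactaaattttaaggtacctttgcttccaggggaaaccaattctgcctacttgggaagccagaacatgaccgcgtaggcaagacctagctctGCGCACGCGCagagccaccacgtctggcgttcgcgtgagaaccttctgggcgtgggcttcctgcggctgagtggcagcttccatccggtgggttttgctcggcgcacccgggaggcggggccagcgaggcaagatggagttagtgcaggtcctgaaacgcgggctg

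Matches were counted by the direction of the subunits, as a description. Of the matched genes on the same side of the control with both siRNAs, NRF1 cores lay at 5 of 28 higher and 8 of 29 lower genes, and ETS cores at 8 and 11. The YY1 motif lay at 2 of each. E-boxes lay at 1 higher gene, ATP5PB, and at 6 lower ones, ATP5MC1, ATP5ME, NDUFA7, NDUFA11, NDUFS7 and UQCR11. Of these, NDUFA7, NDUFA11, NDUFS7 and UQCR11 lie on chromosome 19, where all 11 tested subunits were below the control. Matches were not counted by direction over all genes, and a link between motif and direction was not tested.

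As a group the subunits had a median close to that of all tested genes. Of the 90 genes, 83 had enough counts to be tested: 37 of complex I, 4 of complex II, 10 of complex III, 13 of complex IV and 19 of complex V. Their median log2 fold change, the mean of the log2 CPM differences with both siRNAs, was −0.02, with quartiles at −0.31 and 0.31. Over all 17263 tested genes the median was −0.0019 and the quartiles −0.52 and 0.42. With both siRNAs, 38 subunits lay above the control and 32 below, and 13 were split. Among all tested genes 41.9% lay above and 41.6% below. The 13251 tested protein-coding genes had a median of −0.07, with 5087 above and 6061 below.

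No subunit passed an adjusted p of 0.05 in edgeR's quasi-likelihood test. Over all tested genes 10 did, 0.0579%, and the lowest adjusted p of a subunit was 0.105, for NDUFA11. At an unadjusted p under 0.05, 18 of the 83 subunits were counted, 4 higher and 14 lower. The shares over all genes by the same rule were 26.0% in either direction, 11.5% higher and 14.5% lower. DESeq2 called 1 subunit, NDUFA11, against 4.32% of the 11304 genes it gave an adjusted p.

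Differences shared by both siRNAs are given here beside the shares over all tested genes. The subunits had more counts, with a control median of 979 against 305 over all tested genes and 491 over tested protein-coding genes. The effect of count level on these shares was not tested. At least 2-fold with both siRNAs, 0 were higher (all tested genes 4.0%) and 2 were lower, NDUFA11 and NDUFS7 (all tested genes 5.05%). Of the 13251 tested protein-coding genes, the type that all subunits share, 176 were higher and 733 lower by that rule. At 1.5-fold, 1 was higher, NDUFA5 (11.0%), and 13 were lower (15.5%). The 2 siRNA libraries lay at least 1.5-fold apart for 4 subunits, COX4I1, COX6B2, CYC1 and NDUFB4, against 17.8% of all tested genes, and 2-fold apart for NDUFB4 alone, against 6.56%. Taken singly, siRNA 1 had 9 subunits at least 2-fold lower (all tested genes 12.4%), and siRNA 2 had 2 lower (7.84%) and 1 higher, NDUFB4 (5.54%). Of the single subunits described next, NDUFA11 passed an adjusted test by DESeq2, and none passed by edgeR. Exons of many subunits overlap other genes, and the assignment of shared reads is unknown. For 39 tested subunits the counts were summed with each overlapping gene in turn. The mean fold change then turned direction with at least 1 partner for 5 of them, ATP5PO, NDUFA2, NDUFB2, NDUFB8 and NDUFS3, and moved by over 1.5-fold for NDUFA11.

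**Figure D1:**
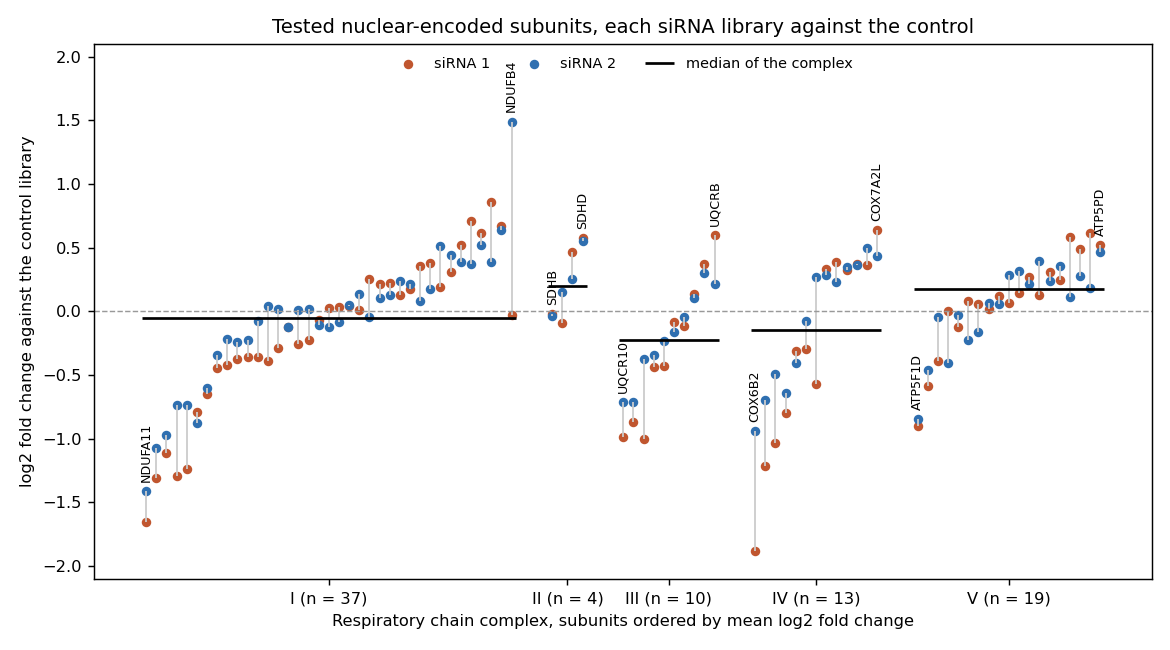
Log2 fold change against the control library (y axis) of each tested subunit with siRNA 1 (orange) and siRNA 2 (blue), ordered by their mean within each complex (x axis); a grey line joins the points of 1 gene and the black bar is the median of the complex. Medians run from −0.23 in complex III to 0.20 in complex II, NDUFA11 is the lowest of complex I, and NDUFB4 has its siRNA libraries on different levels.

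Complex I feeds electrons from NADH into the chain. Of its 37 subunits 15 were higher and 14 lower with both siRNAs, with a median log2 fold change of −0.05. The 7 nuclear core subunits, which carry the flavin, the iron-sulfur clusters and the quinone site, had a median of −0.13, and the 30 accessory subunits, which surround the core, −0.04. With the trend with GC content over all genes removed, this order reversed, with 0.18 for the core and −0.06 for the accessory subunits. By mean log2 fold change, both the lowest and the highest of the 83 subunits, NDUFA11 and NDUFB4, belong to this complex.

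NDUFA11 (ENSG00000174886, chromosome 19, 5891276 to 5904006, minus strand, GRCh38), an accessory subunit of the membrane arm, had 1219 control counts, 381 with siRNA 1 and 469 with siRNA 2. In levels these were 69.3 CPM, 19.9 CPM and 24.9 CPM, so both siRNA libraries lay below the control and close to each other. The log2 fold change was −1.53 ± 0.23 (SE; edgeR quasi-likelihood test, adjusted p = 0.105), with −1.65 for siRNA 1 and −1.41 for siRNA 2. DESeq2 gave an adjusted p of 0.00209, and over all alternatives with a test, limma on FPKM included, the adjusted p ran from there to 0.435. Part of the locus, 12.1% of its exon bases, overlaps AC024592.3, which had 325, 422 and 543 counts in control, siRNA 1 and siRNA 2. Summing the 2 genes gave differences of −0.92 and −0.65, so the value depends on how reads in the shared part were assigned, which no label or header states.

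NDUFS7 (ENSG00000115286, chromosome 19, 1383527 to 1395589, plus strand), a core subunit that holds the iron-sulfur cluster next to the quinone site, had 384 control counts, 152 with siRNA 1 and 186 with siRNA 2. Its log2 fold change was −1.20 ± 0.26 (SE; edgeR, adjusted p = 0.115). Antisense genes overlap 49.1% of its exon bases, but the one with counts, AC005329.1, had only 16, 4 and 11. NDUFS8, another core iron-sulfur subunit, had 585, 234 and 360 counts in control, siRNA 1 and siRNA 2. Both subunits were lowest with siRNA 1.

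The other core subunits went in both directions. NDUFV1, which binds NADH and the flavin, had 1474 control counts, 1125 with siRNA 1 and 1284 with siRNA 2. Its partner NDUFV2 had 1572, 2373 and 2312, a log2 fold change of 0.57 ± 0.20 (SE; edgeR, adjusted p = 0.16). NDUFV2 has a pseudogene copy, NDUFV2P1, whose 213, 501 and 395 counts ran the same way, and summing both gave 0.71 with siRNA 1 and 0.56 with siRNA 2. NDUFS1, the largest subunit of complex I, had 3057, 4331 and 4098 counts. NDUFS3, a core subunit of the matrix arm, had a mean log2 fold change of −0.13, but summed with PTPMT1, a same-strand neighbour with 1054, 1374 and 1141 counts, the differences were 0.23 and 0.06.

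Among accessory subunits of the membrane arm, NDUFB7 had 767 control counts, 349 with siRNA 1 and 400 with siRNA 2, a log2 fold change of −1.05 ± 0.22 (SE; edgeR, adjusted p = 0.11). NDUFB11, an X-linked gene, had 1284, 536 and 792 counts. It overlaps RBM10 on the opposite strand over 44.9% of its exon bases, and RBM10 had 3317, 1787 and 2298 counts, also lowest with siRNA 1. Without known strand the reads of such a pair cannot be told apart.

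NDUFA5, NDUFA12 and NDUFS6, accessory subunits of the matrix arm, stood above the control with both siRNAs. NDUFA5 had 409 control counts, 643 with siRNA 1 and 655 with siRNA 2, the only subunit at least 1.5-fold higher with both. NDUFA12 had 762, 1367 and 1023 counts and NDUFS6 1634, 2643 and 2168. For these last 2, siRNA 1 gave the higher value.

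NDUFB4 (ENSG00000065518, chromosome 3, 120596309 to 120602500, plus strand), a membrane-arm subunit, separated the siRNA libraries more than any other subunit. It had 209 control counts, 202 with siRNA 1 and 607 with siRNA 2. These were 11.9 CPM (95% exact Poisson interval 10.3 to 13.6), 10.6 CPM (9.15 to 12.1) and 32.2 CPM (29.7 to 34.9), intervals that cover counting error only. The intervals of the siRNA 1 and control libraries overlapped, and the siRNA 2 library lay above both. The log2 difference between the siRNA libraries, siRNA 2 minus siRNA 1, was 1.52, and the 12 pseudogenes named after NDUFB4 held only 4, 7 and 7 counts.

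**Figure D2:**
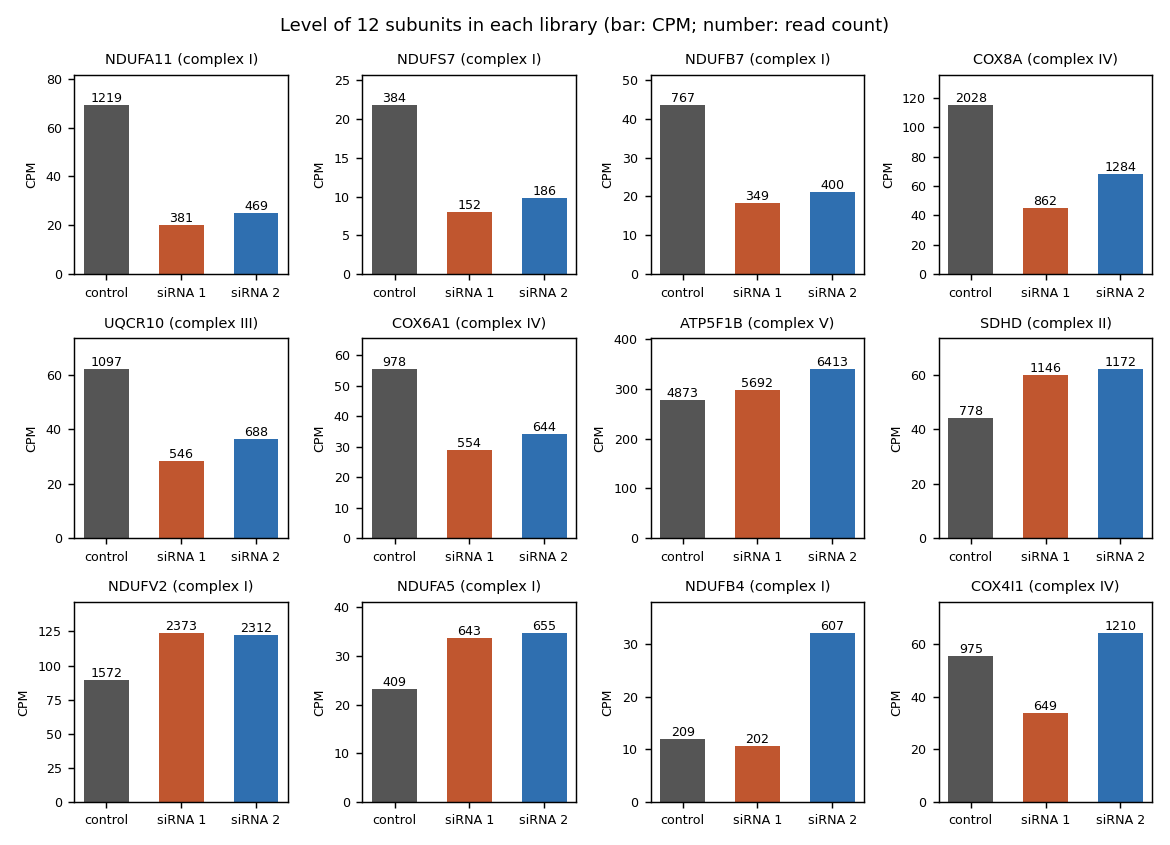
Level in CPM (bars, linear y axis from 0) and read count (number over each bar) of 12 subunits in the control, siRNA 1 and siRNA 2 libraries, 1 library per bar. NDUFA11 stands at 381 and 469 counts against 1219 in the control, SDHD stands at 1146 and 1172 against 778, and NDUFB4 is high in the siRNA 2 library alone, at 607 counts.

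Complex II, succinate dehydrogenase, also belongs to the tricarboxylic acid cycle. Its membrane anchors had higher values with both siRNAs and its catalytic subunits stayed near the control. SDHD had 778 control counts, 1146 with siRNA 1 and 1172 with siRNA 2, a log2 fold change of 0.57 ± 0.22 (SE; edgeR, adjusted p = 0.18). Pseudogenes named after SDHD held 483, 299 and 497 counts, and with them summed the differences were 0.22 and 0.37. SDHC, the other anchor, had 848, 1160 and 1040 counts. SDHA, the flavoprotein, had 2911, 2691 and 3328, and SDHB, the iron-sulfur subunit, 1290, 1257 and 1291. After removal of the trend with GC content over all genes, SDHC stood at 0.03 and SDHD at 0.17, against 0.07 for SDHA and −0.06 for SDHB.

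Complex III had the lowest median of the complexes, −0.23, with 7 of 10 subunits below the control with both siRNAs and 3 above. UQCR10 (ENSG00000184076, chromosome 22, 29767369 to 29770413), one of its small subunits, had 1097 control counts, 546 with siRNA 1 and 688 with siRNA 2. Its log2 fold change was −0.84 ± 0.23 (SE; edgeR, adjusted p = 0.13). UQCR11, the smallest subunit, had 677, 365 and 423 counts. Both stood clearly below the control in each siRNA library.

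The nuclear-encoded redox subunits of complex III, CYC1 and UQCRFS1, lay below the control with both siRNAs, further below with siRNA 1. CYC1, cytochrome c1, had 1869 control counts, 919 with siRNA 1 and 1482 with siRNA 2. UQCRFS1, the Rieske iron-sulfur protein, had 1594, 1171 and 1395. With the trend with GC content over all genes removed, CYC1 turned to 0.09 and 0.46, and UQCRFS1 stood at −0.68 and −0.43. Of the core proteins, UQCRC1 had 3865, 2823 and 3122 counts and UQCRC2 2114, 2696 and 2673, so this pair lay on different sides of the control. UQCRB, which binds near the quinone site, had 1759, 2638 and 2098. The hinge protein UQCRH, which helps cytochrome c dock, had 1477, 1373 and 1357 counts, and its near-identical copy UQCRHL 492, 535 and 543. Reads of UQCRH and UQCRHL could have been split between them, so both values are uncertain.

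Of the 5 complexes, complex IV had the medians furthest apart between the siRNA libraries, with a median of −0.30 for siRNA 1 and 0.23 for siRNA 2 over 13 tested subunits. This difference was not tested. Of the 13 subunits, 12 lay on the same side of the control with both siRNAs. The median over subunits of siRNA 2 minus siRNA 1 was 0.14, and with the trend with GC content over all genes removed the medians were −0.13 and −0.05. COX8A (ENSG00000176340, chromosome 11, 63974607 to 63976543), a small membrane subunit, had 2028 control counts, 862 with siRNA 1 and 1284 with siRNA 2, a log2 fold change of −0.93 ± 0.27 (SE; edgeR, adjusted p = 0.13). COX5B, a zinc-binding matrix subunit, had 1360, 656 and 995. COX4I1, the main form of the subunit that binds regulatory nucleotides, had 975, 649 and 1210 and so lay on different sides of the control.

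COX6A1, the liver-type form of its subunit, had 978 control counts, 554 with siRNA 1 and 644 with siRNA 2. Rows named as its pseudogenes held 928, 1194 and 954 counts, fewer than COX6A1 in the control and more in both siRNA libraries, and ran the other way with siRNA 1. With these summed, the differences shrank from −0.80 to −0.11 for siRNA 1 and from −0.64 to −0.29 for siRNA 2. Of all subunits, 46 had a named pseudogene in the table, 160 rows in all, but only 48 of these rows held a count.

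The subunits with tissue-specific forms were carried by the general form. The muscle forms COX6A2 and COX7A1, the lung form COX4I2 and the testis forms COX7B2 and COX8C were at 0 in all libraries, where 3 counts would correspond to 0.157 to 0.171 CPM. Of the forms of COX7A, COX7A2 had 477, 605 and 693 counts and COX7A2L, which takes part in supercomplex assembly, 1231, 1898 and 1706. COX6B1 had 1737, 1384 and 1344, whereas COX6B2, known from testis, had 54, 13 and 28, the lowest counts of any tested subunit. COX5A, COX6C, COX7B and COX7C all lay above the control with both siRNAs, by mean log2 fold changes of 0.31 to 0.37. With the GC trend removed, COX6C, COX7B and COX7C came to −0.05, −0.04 and −0.15 and COX5A to 0.29. NDUFA4, first assigned to complex I and now counted with complex IV, had 1304, 1048 and 1272 counts, and its paralogue NDUFA4L2 had 9, 0 and 4 and was not tested.

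Complex V, ATP synthase, leaned upward, with 12 of 19 genes above the control with both siRNAs, 4 below and a median of 0.18. With the trend with GC content over all genes removed that median was −0.0098. The 19 genes were taken by name and include ATP5S and the inhibitor ATP5IF1, which were not assigned to a structural part of the enzyme. Of the catalytic F1 head, ATP5F1A (alpha) had 2359 control counts, 2570 with siRNA 1 and 3026 with siRNA 2. ATP5F1B (beta), which holds the catalytic sites, had 4873, 5692 and 6413. The central stalk split: ATP5F1C (gamma) had 1912, 2646 and 2376, ATP5F1E (epsilon) 2815, 3018 and 3012, and ATP5F1D (delta) 476, 251 and 271. ATP5F1D alone in the F1 part lay below the control, with a log2 fold change of −0.88 ± 0.23 (SE; edgeR, adjusted p = 0.13).

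The peripheral stalk, which holds the head still, had 3 of 4 subunits above the control. ATP5PD had 762 counts in the control and 1079 with each siRNA. It overlaps KCTD2 on the opposite strand, with 693, 379 and 445 counts, and summed with it the differences were 0.02 and 0.03. ATP5PF had 2454, 3623 and 2730, and ATP5PB 1764, 2159 and 2143. ATP5PO, the oligomycin sensitivity subunit, had 1121, 844 and 1117, and summed with its antisense neighbour LINC00649 its differences were 0.06 and 0.13. The proton-conducting c ring is made from 3 genes for the same mature protein: ATP5MC1 had 380, 345 and 382 counts, ATP5MC2 927, 999 and 1254, and ATP5MC3 2053, 2049 and 2203. All 3 c-ring genes stayed within a mean log2 fold change of −0.08 to 0.26.

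Other membrane subunits of ATP synthase had no common direction. ATP5MG had 2219 control counts, 3362 with siRNA 1 and 2583 with siRNA 2, and ATP5ME 591, 389 and 440. ATP5ME overlaps MYL5 over 61.6% of its exon bases. ATP5MF had 5111, 5066 and 3962, the lower value being with siRNA 2. ATP5IF1, the inhibitor that blocks ATP hydrolysis by the enzyme, had 1511, 1554 and 1390 counts, a mean log2 fold change of −0.05. ATP5MGL, a copy of ATP5MG, had 3, 5 and 2 counts and was not tested.

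Summed over the tested subunits, the respiratory chain took 0.572% of all control counts, 0.536% with siRNA 1 and 0.558% with siRNA 2. These are shares of raw library totals, without the scaling between libraries used for the fold changes. With scaling by total count alone, the median log2 fold change of all tested genes was −0.10, so a slightly lower share is not particular to the subunits. Complex I held 0.179%, 0.168% and 0.174%, and complex V 0.194%, 0.203% and 0.199%. For complex III the shares were 0.0889%, 0.0716% and 0.0768%, and for complex IV 0.0764%, 0.0617% and 0.0713%. Complex II held 0.0331%, 0.0327% and 0.0363%. The mitochondrially encoded subunits of the same complexes took 7.61%, 10.7% and 7.65% of all counts.

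**Figure D3:**
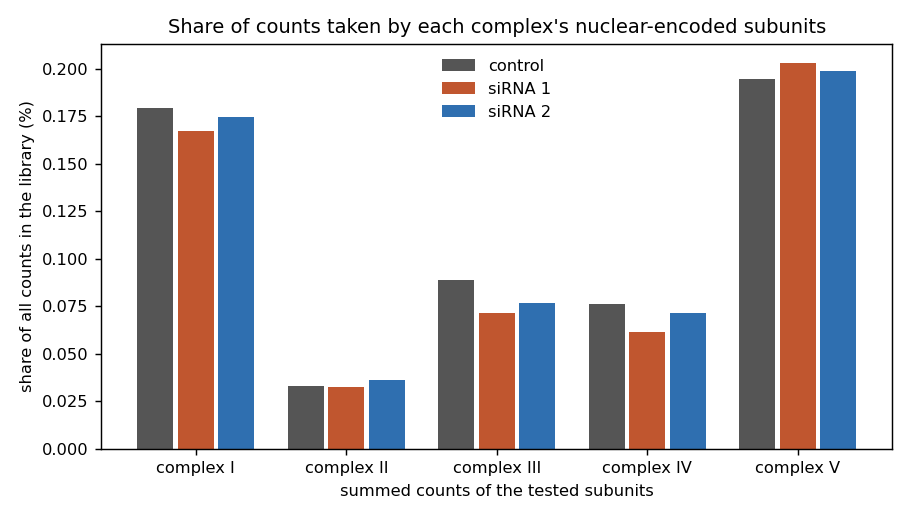
Share of all counts in each library (y axis, percent, from 0) taken by the summed tested subunits of each complex, with 1 bar each for the control (grey), siRNA 1 (orange) and siRNA 2 (blue) library. Complexes I, III and IV have their highest bar in the control, at 0.179%, 0.0889% and 0.0764%. Complex II has its highest with siRNA 2, at 0.0363%, and complex V with siRNA 1, at 0.203%.

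The subunits' order by level depended on the gene length used. The deposited FPKM (fragments per kilobase, scaled to library total) implied, for 77 of the 85 subunits with counts, a length equal within 1 base to the sum of all distinct annotated exons. These lengths were a median 4.43 times and up to 21.0 times the length of the principal transcript. Where several transcripts of a gene were annotated as principal, the shortest was used. In deposited FPKM the highest complex I subunit of the control was NDUFA1 at 100, and NDUFA11 stood at 11.4. Per kilobase of the principal transcript, NDUFA1 kept 100 CPM per kilobase and NDUFA11 had 129, the highest of complex I.

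By principal-transcript length, the highest control levels elsewhere were 69.2 CPM per kilobase for SDHA in complex II, 139 for UQCRH in complex III, 227 for COX8A in complex IV and 953 for ATP5MF in complex V. By FPKM the highest were 22.0 for SDHB, 41.6 for UQCR10, 227 for COX8A and 60.8 for ATP5MF. COX8A and ATP5MF thus headed their complexes in the control by both measures. With siRNA 1, COX7B took the top place of complex IV per kilobase of principal transcript, at 181. The lowest subunits of complex I were NDUFS7 by FPKM, 1.16, and NDUFB6 per kilobase of principal transcript, 8.57.

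At both ends of the GC range, a subunit's direction went with the GC content of its longest transcript, as for genes in general. Among the 30 subunits under 45% GC, 23 were above the control with both siRNAs and 4 below, with a median log2 fold change of 0.32, and all tested genes in that range had a median of 0.41. Among the 19 at or above 55% GC, 0 were above and 16 below, with a median of −0.69, the same as over all genes of that range. Between these, the 23 subunits at 45 to 50% had a median of −0.03 (all genes 0.11). The 11 at 50 to 55% had a median of 0.07, with 6 above and 4 below, against −0.18 over all genes. Pearson's r between GC content and mean log2 fold change was −0.69 over the 83 subunits and −0.61 over 17209 genes, and Spearman's rho −0.65 and −0.69. These points share the same 3 libraries and are given as a description.

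**Figure D4:**
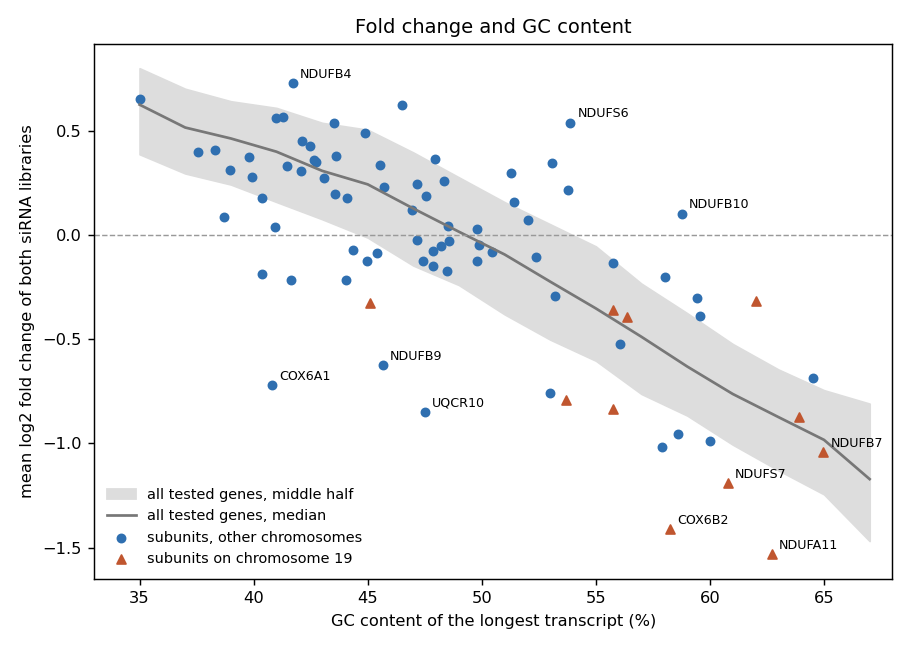
Mean log2 fold change of both siRNA libraries (y axis) against GC content of the longest transcript in percent (x axis); circles are subunits on other chromosomes, triangles subunits on chromosome 19, the line the median and the band the interquartile range of all tested genes. Subunits run from 0.73 (NDUFB4) to −1.53 (NDUFA11), and NDUFA5, at the lowest GC content, stands at 0.65.

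Chromosome 19, which is rich in GC, carries 11 tested subunits, and all 11 lay below the control with both siRNAs (median −0.83). They were NDUFA3, NDUFA7, NDUFA11, NDUFA13, NDUFB7, NDUFS7, UQCRFS1, UQCR11, COX6B1, COX6B2 and ATP5F1D. Of all 1131 tested genes of that chromosome, 70.9% lay below with both, with a median of −0.59. Of the 72 subunits elsewhere, 38 were above and 21 below.

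When the trend with GC content over all genes was removed, the subunits' spread narrowed, with a median of −0.04 and quartiles at −0.27 and 0.15. The medians of the complexes drew together, at −0.05 for complex I, 0.05 for complex II, −0.04 for complex III and −0.15 for complex IV. NDUFA11 then stood at −0.68, NDUFS7 at −0.45, NDUFB7 at −0.05 and ATP5F1D at 0.05. NDUFA5 and SDHD came to 0.07 and 0.17. In all, 24 of the 83 subunits turned direction. Of the 19 subunits under 50% GC with a mean below the control, 17 stood further below, with COX6A1 at −1.12, UQCR10 at −0.95 and NDUFB9 at −0.83. The 2 exceptions were ATP5IF1 and UQCRH. Before removal, NDUFB9 summed with TATDN1, which it overlaps on the opposite strand, differed from the control by only −0.08 and −0.15. COX6A1 summed with its named pseudogenes differed by −0.11 and −0.29, so both low values are uncertain. COX6A1, UQCR10, NDUFB9 and NDUFA11 were the 4 subunits at least 1.5-fold lower with both siRNAs after removal (all tested genes 4.56%). NDUFS6 was the 1 that was higher, at 0.82 (all tested genes 7.38%). The chromosome 19 subunits then had a median of −0.43, against −0.06 for all genes of the chromosome.

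**Figure D5:**
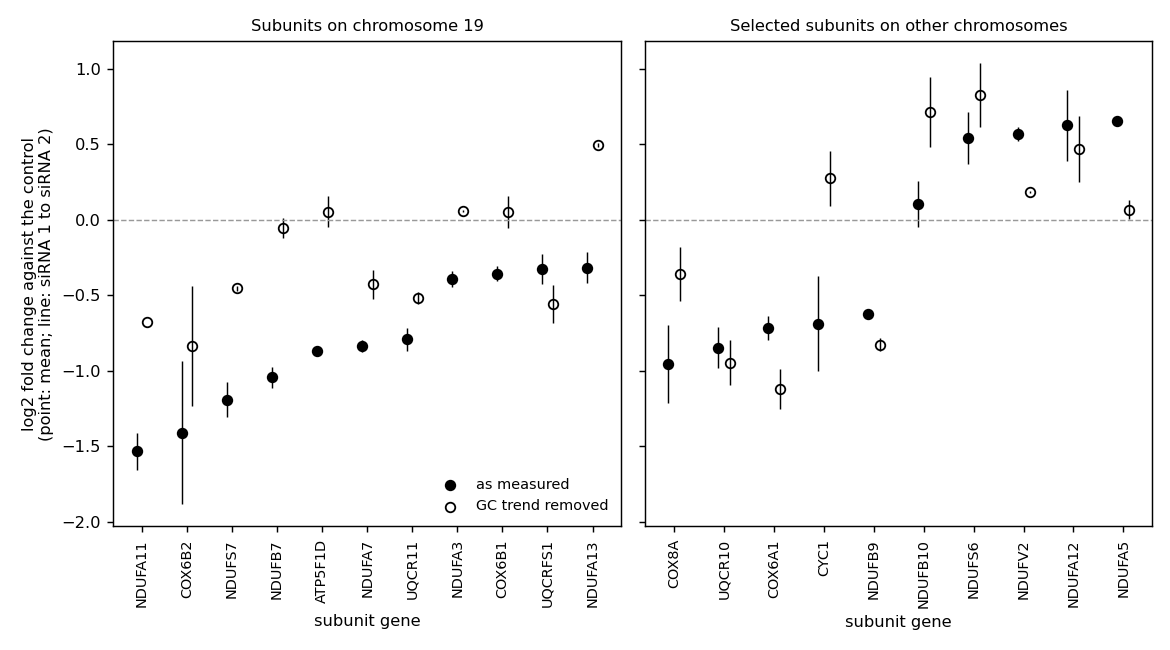
Mean log2 fold change against the control (points) with the range from siRNA 1 to siRNA 2 (lines), as measured (filled) and after removal of the trend with GC content (open), for the 11 subunits on chromosome 19 (left) and for subunits elsewhere chosen after their values were seen (right). NDUFB7 and ATP5F1D move to −0.05 and 0.05, whereas COX6A1 and UQCR10 move to −1.12 and −0.95.

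Genes that serve the chain from outside the complexes were read beside the subunits, from lists of assembly factors, electron carriers, regulators, the tricarboxylic acid cycle and the mitochondrially encoded subunits. Over all tested genes, 41.9% lay above and 41.6% below the control with both siRNAs. The shares called over all genes were 0.0579% by edgeR's adjusted test, 26.0% at an unadjusted p under 0.05 and 4.32% by DESeq2. Of 53 tested rows of assembly factors, 28 were higher and 19 lower with both siRNAs, with a median log2 fold change of 0.13, and 0 passed edgeR's adjusted test (7 at an unadjusted p under 0.05, 1 by DESeq2). COX20, which handles the mitochondrially encoded COX2 protein on its way into complex IV, had 1071 control counts, 2845 with siRNA 1 and 2543 with siRNA 2, and was the 1 called by DESeq2 (adjusted p = 0.00106, against 0.109 by edgeR). TMEM126B, needed for the membrane arm of complex I, had 472, 780 and 703. SCO2, a copper chaperone of complex IV, stands in 2 rows of the table, the larger of which had 164, 52 and 82 counts.

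Among 16 genes of the electron carriers and their synthesis, 9 were higher and 5 lower with both, and 0 passed edgeR's adjusted test (3 at an unadjusted p under 0.05, 0 by DESeq2). PDSS1, which starts the ubiquinone tail, had 352, 572 and 583 counts in control, siRNA 1 and siRNA 2. COQ8B and COQ4, both of ubiquinone synthesis, had 464, 202 and 295 and 823, 463 and 559. GPD2, the mitochondrial glycerol-3-phosphate dehydrogenase, had 1290, 3026 and 1448 and was high with siRNA 1 alone.

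Of 15 tested regulators of mitochondrial biogenesis, 7 were higher and 5 lower with both. By edgeR's adjusted test 1 passed (4 at an unadjusted p under 0.05, 1 by DESeq2). The 4 were MYC, YY1 and TFAM, which were higher, and POLRMT, which was lower. The gene called by both programs was MYC, a transcription factor that binds E-boxes. It had 281 control counts, 2447 with siRNA 1 and 2709 with siRNA 2 (edgeR quasi-likelihood, Benjamini-Hochberg adjusted p = 0.0274). POLRMT, the mitochondrial RNA polymerase, had 759 control counts, 199 with siRNA 1 and 391 with siRNA 2. ESRRA, a nuclear receptor that acts on subunit genes, had 613, 264 and 503. YY1 had 2067, 3549 and 3427, and TFAM 2041, 3559 and 3106. NRF1 and GABPA, whose motifs the promoters hold, had 454, 409 and 535 and 1247, 811 and 1395 counts, near or on both sides of the control. PPARGC1A, the coactivator of the programme, had 3, 0 and 0 and was not tested.

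Of 18 genes of the tricarboxylic acid cycle and pyruvate dehydrogenase, 10 were higher and 6 lower with both (median 0.09), and 0 passed edgeR's adjusted test (4 at an unadjusted p under 0.05, 0 by DESeq2). CS, citrate synthase, had 8095 control counts, 9114 with siRNA 1 and 1881 with siRNA 2. It was thus low with siRNA 2 alone, by −2.14 in log2 terms. IDH3A had 755, 1344 and 1080, and SUCLA2 1103, 1828 and 1690.

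The 13 mitochondrially encoded subunits, partners of the nuclear ones in complexes I, III, IV and V, had medians of 0.67 with siRNA 1 and 0.05 with siRNA 2. None passed edgeR's adjusted test (0 of 13, with 2 at an unadjusted p under 0.05 and 0 by DESeq2). MT-ATP6, the proton channel of ATP synthase, had 47119, 196823 and 58883 counts in control, siRNA 1 and siRNA 2, so it was high in the siRNA 1 library alone. MT-CYB and MT-ND1 had 96263, 115307 and 97475 and 73285, 84673 and 69671. MT-ND6 had 14476, 33404 and 20799.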

How the data were processed

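The authors deposited raw read counts and FPKM per gene for 3 libraries. The submitters' processing notes list Bowtie 0.12.2 and, as builds, GRCh38 and mm8, with no role. For the counting program, strand and multiply mapped reads, the sources used here give nothing. Counts were tested with edgeR 4.0.16 (R 4.3.3; TMM, filterByExpr with a minimum count of 10, quasi-likelihood F test, both siRNA libraries against the control, 1 residual degree of freedom) and Benjamini-Hochberg adjustment over all 17263 genes. Per-siRNA log2 CPM differences used a prior count of 2. Alternatives were DESeq2 1.42.0, limma 3.58.1 on log2(FPKM + 1) and log2(FPKM + 0.1), other scalings and filters, lowess trends with GC content or length (fraction 0.3), and sums with named pseudogenes. Scripts were tested on simulated data. All 90 genes were found in GENCODE 29, 87 with identical loci. The members and lists were chosen with earlier results of these data known. Genes were named by rule: all SDH genes, the extremes of each complex and list, the highest level per complex, paralogues, and the largest differences between siRNA libraries. The others were named after their values were seen. Some genes are not reported here.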

Additional observations from a re-analysis of the deposited data

How the results depend on the processing

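The count of genes passing edgeR's adjusted test was 10, and 9 with scaling by total count. It was 0 with no filter on low counts, with a minimum of 1 CPM per library, with the GC trend removed, with the transcript length trend removed and with both removed (3938, 4050, 1749, 4229 and 1610 genes at an unadjusted p under 0.05), and 0 by limma on log2(FPKM + 1) and log2(FPKM + 0.1) (4498 and 4312). It was 488 by DESeq2. The subunits among them numbered 0 throughout, and 1 by DESeq2. Subunits at least 2-fold away with both siRNAs numbered 2, but 0 with the GC trend removed, 4 with the length trend removed, 5 with the transcript length trend removed, 1 with GC and transcript length trends removed and 14 at 1.5-fold. With either siRNA library left out, the number ran from 3 (without siRNA 1) to 10 (without siRNA 2), and no test was left. The median log2 fold change of −0.02 came to −0.12 with total counts, which moved the median of all genes to −0.10, to −0.0016 at 1 CPM, to 0.0488 and 0.0211 with the length and transcript length trends removed and to −0.10 with GC and transcript length removed. With a library left out it ran from 0.0003 to 0.0515. For 39 named subunits, 326 of 350 alternative values with both siRNA libraries kept their direction, and 16 of the other 24 came from the GC alternatives. With a library left out, 4 of 78 turned: COX4I1 to 0.28 without siRNA 1, and NDUFB4 to −0.05, ATP5IF1 to 0.04 and SDHA to −0.11 without siRNA 2. The transcript length trends and the sums with overlapping genes were added after seeing the data. No paired analysis was possible because there was only 1 control library for the 2 siRNA libraries. With 1 control and 1 library per siRNA, genes with few counts, such as COX6B2, have wide error. The cause of these dependences was not tested.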
